A study of Mus musculus with 12 samples.

Results

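The interferon-inducible p200 family, also called the HIN-200 or PYHIN family, was followed here as 8 mouse genes: Ifi203, Ifi204, Ifi207, Ifi209, Ifi211, Ifi213, Mndal and Aim2. They and the gene lists used below were chosen by name, with earlier results of these data known. All 8 members were found among the 42687 Ensembl gene identifiers of the count table. Counts above 0 were present for 7 of them, and 6 carried enough counts to be tested. The cells were DC2.4, a wild-type mouse dendritic cell line, in 4 groups of 3 libraries. The controls were given phosphate-buffered saline (PBS). The ATEV group was given mouse ATEV, a kind of extracellular vesicle, at 15 µg/mL. The NTEV group was given mouse NTEV at 30 µg/mL, spelled out in the labels as vesicles derived from T cells that had not been activated. The labels do not spell out ATEV, which is read here as the counterpart from activated T cells. They add a figure of 5 µg/mL of vesicle DNA after the NTEV dose, and whether it also covers ATEV is not clear. The DNase-treated ATEV group was given 15 µg/mL of ATEV pretreated with Baseline-ZERO DNase, an enzyme that degrades DNA. Each group was collected after a day and reseeded, and the steps were run 3 times, and the labels leave unclear if these were successive rounds or independent experiments. The p-values therefore measure the spread between these libraries, which may be technical.

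Proteins of this family bind DNA, or bind each other, through a carboxy-terminal HIN domain, and most carry an amino-terminal pyrin domain that recruits other pyrin proteins. AIM2 recognises double-stranded DNA in the cytosol and assembles an inflammasome through the adaptor ASC, which activates caspase-1. The mouse protein p204, encoded by Ifi204, has been linked to the STING route from cytosolic DNA to interferon. The family is named for its induction by interferon, and in the mouse its genes lie side by side on chromosome 1.

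Libraries held 19.4 to 30.4 M gene counts. Of 11 dendritic cell markers 8 could be tested. Ptprc, the leukocyte antigen CD45, reached 8205 counts in a library, and Spi1, a myeloid transcription factor, reached 5097, whereas Flt3, H2-Aa and H2-Ab1 did not exceed 3, 9 and 17 counts. Of 10 T cell markers, Cd3e, Cd8a and Trbc2 had 0 counts in every library and another 5 had at most 4. Levels are given as TMM-scaled CPM, that is counts per M of library counts after scaling by the trimmed mean of M values. The test was edgeR's quasi-likelihood F test over 13261 genes, and a gene is said to be called at a Benjamini-Hochberg adjusted p under 0.05. Where libraries of different groups are said not to overlap, this is a description, and its share over all genes was not counted.

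The promoters of the family are shown first because 5 of the 7 members with a promoter window share a short sequence there. The interferon-stimulated response element, to which the interferon-activated factor ISGF3 and IRF proteins bind, has the core GAAA, any 2 bases, then GAAA. RefSeq promoter windows (GRCm38.p6, 250 bases before to 50 after a start) were available for 7 members in 9 windows, and both strands were searched. Windows of 5 members held this core: Ifi203, Ifi211, Mndal, Ifi207 and Ifi213. Those of Aim2 and Ifi209 did not. Counted as windows, 6 of the 9 held it, beside 3.44% of all 32851 windows of this length. The 9 windows are not independent, since both windows of Mndal overlap each other, as do both of Ifi203. The share over all windows is thus given for scale and not as a test. The core of the gamma-activated site, TTCNNNGAA, was in 0 of the 9 member windows and in 8.30% of all windows; the cores do not overlap each other in any member window. The 80 bases before the start are given 5′ to 3′, with the match to this core in capitals.
Ifi203 (second start, chr1:173942493-173942572, minus strand): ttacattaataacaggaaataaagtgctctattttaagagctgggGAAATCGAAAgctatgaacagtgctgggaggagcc
Mndal (first start, chr1:173880188-173880267, minus strand): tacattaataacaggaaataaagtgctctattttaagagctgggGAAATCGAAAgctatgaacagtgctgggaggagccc
Ifi211 (chr1:173913047-173913126, minus strand): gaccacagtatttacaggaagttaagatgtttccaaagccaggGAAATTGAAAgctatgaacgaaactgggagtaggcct
Ifi207 (chr1:173741810-173741889, minus strand): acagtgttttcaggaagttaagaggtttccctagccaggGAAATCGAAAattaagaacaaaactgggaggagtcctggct
Ifi213 (chr1:173599273-173599352, minus strand): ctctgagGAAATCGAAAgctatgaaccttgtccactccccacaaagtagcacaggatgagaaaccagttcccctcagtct
Aim2 (chr1:173420524-173420603, plus strand): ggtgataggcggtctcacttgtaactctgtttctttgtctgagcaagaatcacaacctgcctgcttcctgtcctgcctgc

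The match began 35 bases before the start in Ifi203, 36 in Mndal, 37 in Ifi211, 41 in Ifi207 and 73 in Ifi213. The stretches printed for Ifi203 and Mndal are the same letters apart from a base at each end, so they are near copies. A match is a description of these letters and not evidence of binding, and the absence of one in Aim2 and Ifi209 concerns these windows alone. The second Mndal start had a match on the opposite strand, and the first Ifi203 start had none. Ifi204 had no entry among the windows.

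**Figure D1:**
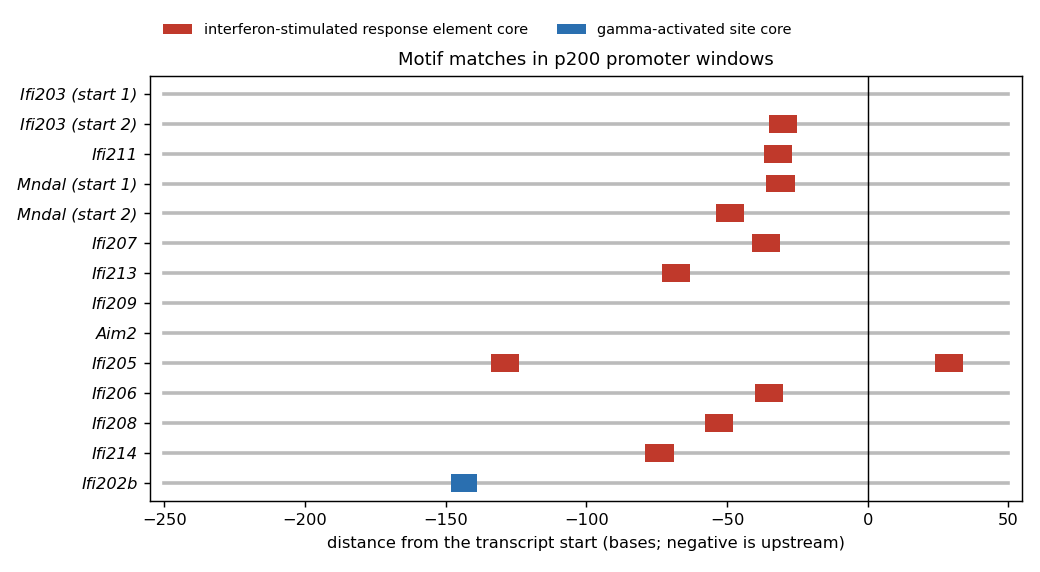
Positions of motif matches in the promoter windows of 7 members and of 5 further genes of the cluster, with distance from the transcript start in bases on the x axis (grey line, window searched; red, core of the interferon-stimulated response element; blue, core of the gamma-activated site). In the member windows that hold a red match it begins between 35 and 73 bases upstream, and the windows of Aim2 and Ifi209 hold none.

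Against PBS, cells given ATEV held more mRNA of 4 members, Ifi204, Ifi203, Ifi211 and Mndal, and no member fell. Aim2 and Ifi207, the most abundant members, did not pass the test. These 4 calls were among 6 tested members, and 3.32% of all tested genes were called higher in this comparison. Ifi211 passed the filter on low counts through the ATEV libraries alone and so had to differ; its call is a description and no support, and without it 3 of 5 tested members were called. The question behind it is the effect of the ATEV on the cells' transcripts.

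Ifi204 stood at 3.92, 2.30 and 3.06 CPM in the PBS libraries and at 10.1, 13.7 and 16.3 CPM in the ATEV libraries. DNase-treated ATEV libraries held 6.60, 3.79 and 2.88 CPM, and NTEV libraries 2.66, 1.28 and 1.79 CPM. Every ATEV library lay above all others. ATEV exceeded PBS by 2.11 ± 0.34 on the log2 scale (SE, adjusted p = 0.00385), and it stayed called with any 1 of the 6 libraries removed.

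Ifi203, a nuclear p200 protein with several spliced forms, had 8.07, 6.24 and 8.70 CPM in PBS and 19.5, 18.0 and 22.5 CPM with ATEV. Levels were 11.2, 7.20 and 5.97 CPM with DNase-treated ATEV and 4.59, 5.08 and 3.83 CPM with NTEV. ATEV libraries did not overlap any other group, and NTEV libraries lay below PBS. Its log2 fold change between ATEV and PBS was 1.38 ± 0.23 (SE, adjusted p = 0.00443), and it was called in all 6 fits with a library left out.

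Ifi211, which RefSeq also lists under the name Mnda after the human myeloid nuclear differentiation antigen, had 34, 48 and 66 counts in the ATEV libraries. The PBS libraries had 7, 1 and 2 counts, the DNase-treated ATEV libraries 7, 2 and 2, and the NTEV libraries 8, 3 and 1. Counts outside the ATEV group were 8 or fewer in every library. As levels, ATEV held 2.42 ± 1.02 CPM and PBS 0.138 ± 0.125 CPM (SD, n = 3), which is 4.03 ± 0.61 on the log2 scale (SE, adjusted p = 0.00237). That size rests on few PBS counts: without PBS replicate 1 the estimate was 5.06. It was likewise 4.68 without replicate 1 of the DNase-treated group and 4.68 without NTEV replicate 1, against 3.79 and 3.88 with all libraries in the comparisons of ATEV with those groups.

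Mndal, a nuclear relative of the same antigen, had 15.7, 18.0 and 21.0 CPM in PBS and 25.2, 27.4 and 30.7 CPM with ATEV. DNase-treated ATEV gave 20.8, 15.5 and 15.3 CPM, and NTEV gave 11.8, 12.1 and 11.4 CPM. The ATEV libraries were the highest and the NTEV libraries the lowest of the 12, with no overlap with PBS in either case. The ATEV rise over PBS was 0.61 ± 0.16 on the log2 scale (SE, adjusted p = 0.0474). It was called without ATEV replicate 1 (adjusted p = 0.0418) and lost with any PBS library removed (adjusted p = 0.170, 0.157 and 0.0542 for replicates 1 to 3) and with ATEV replicate 2 or 3 removed (0.135 and 0.113).

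Aim2, the inflammasome sensor, had 44.3, 53.2 and 56.8 CPM in PBS and 51.3, 72.7 and 71.1 CPM with ATEV. It had 58.1, 53.3 and 46.9 CPM with DNase-treated ATEV and 46.9, 61.0 and 61.8 CPM with NTEV. All 4 groups overlapped. The difference between ATEV and PBS was 0.34 on the log2 scale with a 95% interval of -0.01 to 0.69 (adjusted p = 0.200), which does not show that the levels were alike.

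Ifi207 had 39.2, 36.5 and 28.7 CPM in PBS and 35.6, 50.3 and 30.7 CPM with ATEV. DNase-treated ATEV gave 40.5, 24.0 and 19.8 CPM, and NTEV 26.5, 21.5 and 23.0 CPM. The ATEV and PBS libraries overlapped, and the difference was 0.16 (log2, 95% interval -0.37 to 0.69, adjusted p = 0.703).

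Ifi209, also known as Pyhin1, was too scarce to be tested, with 23 counts over the 3 ATEV libraries (5, 7 and 11) and 7 over the 3 PBS libraries (5, 0 and 2). DNase-treated ATEV libraries had 5, 2 and 0 counts and NTEV libraries 1, 1 and 2. The ratio of ATEV to PBS was 3.63 with a 95% interval of 1.51 to 10.0 that covers counting error only. Tested without the filter on low counts, its adjusted p was 0.187. Ifi213 had 0 counts in all 12 libraries, which allows a level of up to 0.0110 CPM over them together. The read counter was not given in the sources used here and may drop reads that fit several genes, so a transcript may be present at 0 counts.

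**Figure D2:**
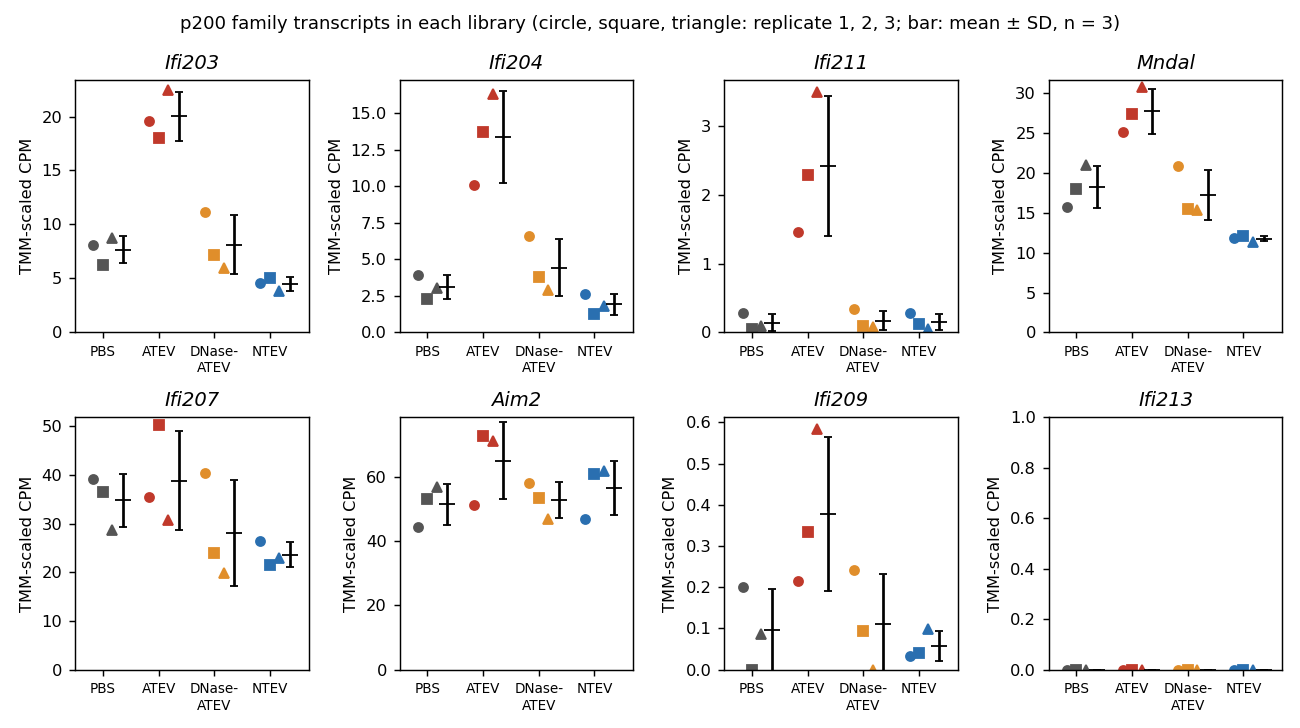
Levels of the 8 members in each of the 12 libraries, in TMM-scaled CPM on linear axes that start at 0 (circle, square and triangle, replicates 1, 2 and 3; bar, mean with SD, n = 3, a bar that would pass below 0 ending at the axis). Ifi203, Ifi204, Ifi211 and Mndal are highest in the 3 ATEV libraries, the groups overlap for Aim2, and Ifi213 is at 0 throughout.

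Parts of these genes are near-identical, which bears on how reads were divided between them. Of the 50-base stretches in GENCODE M21 transcripts of Ifi211, 72.8% also occurred in another gene of the cluster, against 19.1% for Ifi204, 17.3% for Mndal, 4.46% for Ifi207, 3.87% for Ifi203 and 0 for Aim2. For stretches of 100 bases the shares were 56.9% for Ifi211 and 10.7% for Ifi204. In that annotation the span of Mndal contains Ifi211, and Mndal shares 37 exonic bases with Ifi203. The share for 50 bases was 33.4% for Ifi209 and 15.6% for Ifi213. For Ifi203 it was 12.2% once any other gene, such as Ifi203-ps, was counted. The single values of Ifi204, Ifi209, Ifi211, Ifi213 and Mndal are uncertain to that extent, and that of Ifi203 to a lesser one. Summed over the 8 genes, the family stood at 112, 116 and 118 CPM in PBS and 143, 185 and 175 CPM with ATEV. With DNase-treated ATEV the sum was 138, 104 and 91.0 CPM, and with NTEV 92.8, 101 and 102 CPM. The ATEV libraries had the highest sums and did not overlap another group.

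Levels of different genes can be compared only per length. Per kb of annotated exon, Aim2 led in PBS with 14.7 ± 1.83 CPM per kb, followed by Ifi207 at 10.2 ± 1.59, Mndal at 5.03 ± 0.725, Ifi203 at 1.14 ± 0.191 and Ifi204 at 0.868 ± 0.227 (SD, n = 3). Ifi211 was at 0.0771 ± 0.0698 and Ifi209 at 0.0269 ± 0.0282 CPM per kb. The ranges of Ifi203 and Ifi204 overlapped, as did those of Ifi211 and Ifi209, while the other neighbours in this order did not overlap. With ATEV, Ifi204 reached 3.75 ± 0.882 and Ifi203 2.98 ± 0.338 CPM per kb, again overlapping, and Ifi211 1.35 ± 0.573. The first 2 of the order, Aim2 at 18.6 ± 3.41 and Ifi207 at 11.3 ± 2.98 CPM per kb, stayed at its head in the ATEV group, with ranges that touched. These values divide by the union of all annotated exons, so a gene with many spliced forms such as Ifi203 is set lower than its main transcript would be.

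**Figure D3:**
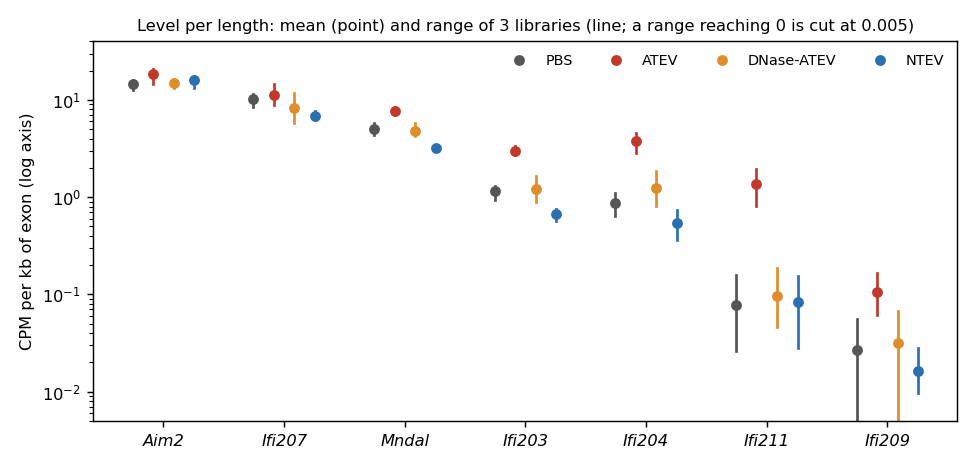
CPM per kb of annotated exon on a log axis for the 7 members with counts, by group (point, mean; line, lowest to highest of 3 libraries; ranges that reach 0 are cut at 0.005). Aim2 and Ifi207 are the most abundant in every group, and Ifi211 moves from 0.0771 in PBS to 1.35 with ATEV.

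DNase-treated ATEV was compared with PBS to ask what response remained after the vesicles had met the enzyme. None of the 6 tested members was called by edgeR, DESeq2 or limma-voom, and 0 had an unadjusted p under 0.05. Over all genes edgeR called 0%, DESeq2 0.292% (38 genes), and 5.96% (791 genes) had an unadjusted edgeR p under 0.05. Intervals of the log2 difference were -0.42 to 0.57 for Ifi203, -0.23 to 1.25 for Ifi204, -1.55 to 2.02 for Ifi211 and -0.43 to 0.26 for Mndal. Aim2 lay between -0.31 and 0.39 and Ifi207 between -0.84 and 0.22. Within the group, replicate 1 had the highest level of each of the 7 members with counts, and without it the estimate for Ifi203 moved from 0.08 to -0.22 and that for Ifi204 from 0.51 to 0.10.

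Directly compared, intact ATEV left more mRNA of Ifi203, Ifi204 and Ifi211 than DNase-treated ATEV at the same vesicle dose. These were 3 of 6 tested members (2 of 5 without Ifi211), beside 1.32% of all tested genes called higher. The log2 differences were 1.30 ± 0.23 for Ifi203 (SE, adjusted p = 0.00962), 1.60 ± 0.33 for Ifi204 (adjusted p = 0.0304) and 3.79 ± 0.61 for Ifi211 (adjusted p = 0.00525). Mndal was 0.69 ± 0.16 higher and was not called (adjusted p = 0.0522). Its libraries in these groups did not overlap, which is a description only. DESeq2 and limma-voom called it (adjusted p = 0.00306 and 0.0437), beside 358 and 165 of 13261 genes called higher. Aim2 (0.30, 95% interval -0.05 to 0.65) and Ifi207 (0.47, -0.06 to 1.00) were not called.

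These calls rested on the DNase-treated libraries in part. Without DNase-treated ATEV replicate 2, 0 members were called (adjusted p = 0.0725 for Ifi203, 0.156 for Ifi204 and 0.0509 for Ifi211). Leaving out replicate 3 of that group left 1 call, Ifi211, with Ifi203 at 0.0553 and Ifi204 at 0.142. As Ifi211 passed the filter through the ATEV libraries alone, its call is no support. No other member was called without replicate 2 or without replicate 3. Without replicate 1 there were 4, Mndal included (0.0246). Ifi204 was also lost without ATEV replicate 2 or 3 (0.124 and 0.122), and Mndal was gained without ATEV replicate 1 (0.0352). The fold changes stayed between 1.12 and 1.60 for Ifi203 and between 1.36 and 2.0 for Ifi204 on the log2 scale over all alternatives. This comparison shares its ATEV libraries with the one against PBS, so the pair are not independent.

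NTEV, compared with PBS, were not followed by a called change in any of the 6 tested members. Estimates for Ifi203, Mndal and Ifi207 lay below PBS, with every NTEV library under every PBS library. The share of all genes that separate in this way was not counted. The differences were -0.77 ± 0.23 for Ifi203 (log2, SE, adjusted p = 0.105), -0.63 ± 0.16 for Mndal (adjusted p = 0.0579) and -0.56 ± 0.25 for Ifi207 (adjusted p = 0.240). At an unadjusted p under 0.05 there were 3 members, these same genes, beside 19.1% of all tested genes, and limma-voom called 0 members. The background for edgeR was 0.611% of genes called lower and 1.70% higher. DESeq2 called Ifi203 and Mndal lower (adjusted p = 0.0356 and 0.00770), beside 2.0% of genes. Without NTEV replicate 1, edgeR called Mndal lower (adjusted p = 0.0429), beside 4.66% of genes. Ifi204 (-0.69, 95% interval -1.45 to 0.08), Ifi211 (0.15, -1.60 to 1.90) and Aim2 (0.14, -0.21 to 0.49) were not called by any of these.

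ATEV was set against NTEV at 15 against 30 µg/mL, so the source and the vesicle amount cannot be told apart. ATEV cells held more Ifi203, Ifi204, Ifi211 and Mndal, 4 of 6 tested members (3 of 5 without Ifi211), beside 0.875% of all tested genes called higher. The log2 differences were 2.15 ± 0.24 for Ifi203 (SE, adjusted p = 3.25e-04), 2.79 ± 0.36 for Ifi204 (adjusted p = 0.00118), 3.88 ± 0.60 for Ifi211 (adjusted p = 0.00464) and 1.24 ± 0.16 for Mndal (adjusted p = 0.00133). Ifi203, Ifi204 and Mndal were called in each of the 12 alternatives. Ifi207 was 0.71 ± 0.25 higher without passing (adjusted p = 0.244), its ATEV libraries all above the NTEV ones, and Aim2 differed by 0.20 (95% interval -0.15 to 0.55).

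**Figure D4:**
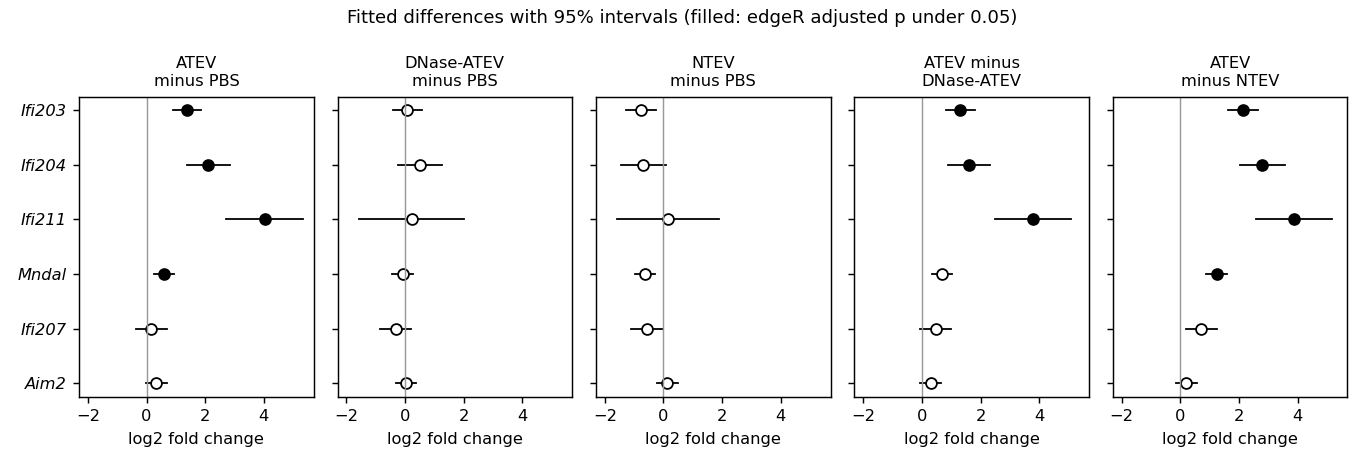
Fitted log2 fold changes of the 6 tested members in 5 comparisons (point; line, 95% interval; filled where edgeR's adjusted p was under 0.05). Ifi203, Ifi204 and Ifi211 are called in the 3 comparisons that start from ATEV, Mndal in 2 of these, and no point is filled for DNase-treated ATEV or NTEV against PBS.

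The make-up of the family's counts differed between groups as well. Aim2 made up 39.7 to 47.9% of the family's counts in PBS, 35.8 to 40.5% with ATEV, 42.2 to 51.6% with DNase-treated ATEV and 50.5 to 60.6% with NTEV. Ifi204 made up 1.98 to 3.51% in PBS and 7.03 to 9.31% with ATEV. These are shares of counts, in which a longer transcript weighs more.

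Levels of cell type markers are given beside the family's. The summed level of the 10 T cell markers was 59.5 to 102 CPM in PBS, 43.1 to 62.2 with ATEV, 52.9 to 59.7 with DNase-treated ATEV and 34.8 to 52.5 with NTEV. It was no higher with ATEV than in PBS. Nearly all of it was Cd28 and Lck, which were also present in PBS (means of 72.2 and 7.70 CPM), so the sum cannot show T cell RNA. The 7 macrophage markers summed to 3321 to 3860 CPM in PBS, 4587 to 7445 with ATEV, 3062 to 3389 with DNase-treated ATEV and 4754 to 5423 with NTEV. Most of this sum was Lyz2, at a mean of 1662 CPM in PBS, 3866 with ATEV, 1358 with DNase-treated ATEV and 2853 with NTEV. With ATEV, Lyz2 (1.22) and Fcgr1 (0.73 on the log2 scale) were called higher than in PBS, beside 3.32% of all tested genes. The other 5 were not called, Csf1r standing at 558 against 556 CPM. None of the 7 was called for NTEV or DNase-treated ATEV against PBS by edgeR. Of the 8 tested dendritic cell markers, Itgax (1.29), Irf8 (0.55) and Itgam (0.51, log2) were called higher with ATEV than in PBS. Itgax (1.32) and Itgam (0.54) were also called higher with NTEV than in PBS, beside 1.70% of all tested genes. No dendritic cell marker was called lower, and each of these calls was lost in some fit with a library left out. The part of these genes in the family's levels was not tested. In bulk RNA, a change in the number of cells that express a gene and a change in RNA per cell cannot be told apart.

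Another 5 p200 genes of the cluster had few or no counts. Ifi202b, Ifi208 and Ifi214 had 0 counts in all 12 libraries, Ifi205 had 4 in total and Ifi206 had 2. Their promoter windows carried the response element core in 4 of 5 cases. Of 7 genes flanking the cluster, only the phosphatase gene Dusp23 could be tested, and it was not called in any comparison.

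Several genes of a list drawn around inflammasomes passed the test against PBS, which Aim2 did not. The difference between them and Aim2 was not tested. Pycard and Casp1 encode the ASC and caspase-1 named above, and the list is not limited to partners of AIM2. Of 13 listed genes of the inflammasome and its outputs 11 were tested. With ATEV 6 were called higher than with PBS and 0 lower, beside 3.32% of all tested genes called higher and 1.42% lower. The median log2 fold change was 0.80, against 0.03 over all genes. Zbp1, whose product binds Z-form nucleic acids, went from 0.196 ± 0.0943 to 8.84 ± 2.4 CPM (SD, n = 3; log2 fold change 5.43, adjusted p = 4.40e-06). Casp4, the inflammatory caspase-11, rose from 4.44 ± 0.156 to 22.5 ± 4.61 CPM, Casp1 from 31.1 ± 4.64 to 66.4 ± 17.6 CPM and Pycard, which encodes ASC, from 62.4 ± 6.97 to 108 ± 25.1 CPM. The other 2, named after their values were seen, were the pore former Gsdmd (0.50) and the cytokine Il18 (1.27). Zbp1, Casp4 and Casp1 were called whichever library was left out; Pycard and Gsdmd were no longer called once PBS replicate 1, PBS replicate 2, ATEV replicate 2 or ATEV replicate 3 was removed (highest adjusted p 0.0997 and 0.148), and Il18 without any library but ATEV replicate 1 (up to 0.154). Il1b, the main cytokine cleaved by caspase-1, was too scarce to be tested, with at most 7 counts in a library.

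In the other comparisons, 4 of the 11 tested genes of this list were called higher with ATEV than with DNase-treated ATEV, beside 1.32% of all tested genes. With ATEV against NTEV 2 were called higher, beside 0.875%. With NTEV against PBS 2 were called higher, beside 1.70%. Between DNase-treated ATEV and PBS 0 were called, as over all genes. The 4 were Zbp1 (3.61), Casp4 (1.56), Casp1 (1.03) and Pycard (0.91, on the log2 scale). Pycard was lost without any library but ATEV replicate 1 (adjusted p up to 0.0820), and Casp1 without DNase-treated ATEV replicate 2 or 3 (up to 0.0740). The pair that was higher with NTEV than with PBS was Casp4 (1.25) and the alarmin gene Il1a, and both calls were lost without any library but NTEV replicate 1 (up to 0.113 and 0.148). Il1a, at 0.608 CPM with NTEV and 0.0841 in PBS, had at most 17 counts in a library and passed the filter through the NTEV libraries alone, so its call is a description.

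Of 19 genes of cytosolic DNA signalling and DNA removal 18 were tested. With ATEV 2 were higher and 1 lower than in PBS (median -0.16), beside 3.32% of all tested genes called higher and 1.42% lower. Irf7, an interferon regulatory factor, rose by 2.08 and the kinase gene Ikbke by 0.91 on the log2 scale; removing PBS replicate 2 took Ikbke past the threshold (adjusted p = 0.0595). Xrcc6, the Ku70 DNA-end binding protein, fell by 0.51 and lost its call without any 1 of the 6 libraries (up to 0.176). The sensor gene Cgas (-0.18 ± 0.16, SE, adjusted p = 0.478) and Tmem173, which encodes STING (-0.15 ± 0.13, adjusted p = 0.480), were not called. Irf7 and Ikbke were also higher with ATEV than with DNase-treated ATEV (1.67 and 1.00).

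Among 13 tested genes of interferon receptors, signalling and feedback, 4 were higher and 0 lower with ATEV than with PBS (median 0.47). Over all tested genes 3.32% were called higher and 1.42% lower. Irf1, an interferon regulatory factor, rose by 2.83, Irf9 and Stat2, which encode subunits of ISGF3, by 1.45 and 1.25, and the myeloid regulator Irf8 by 0.55 on the log2 scale. Irf1 and Irf9 were called whichever library was left out, Stat2 was lost once PBS replicate 1, PBS replicate 2, ATEV replicate 2 or ATEV replicate 3 was removed (highest adjusted p 0.126), and Irf8 without any library but ATEV replicate 1 (up to 0.153). Irf9 was at 10.6 ± 2.47 CPM in PBS, 29.0 ± 3.75 with ATEV, 15.6 ± 1.77 with DNase-treated ATEV and 12.0 ± 3.82 with NTEV (SD, n = 3). The 4 receptor genes Ifnar1, Ifnar2, Ifngr1 and Ifngr2 were not called.

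**Figure D5:**
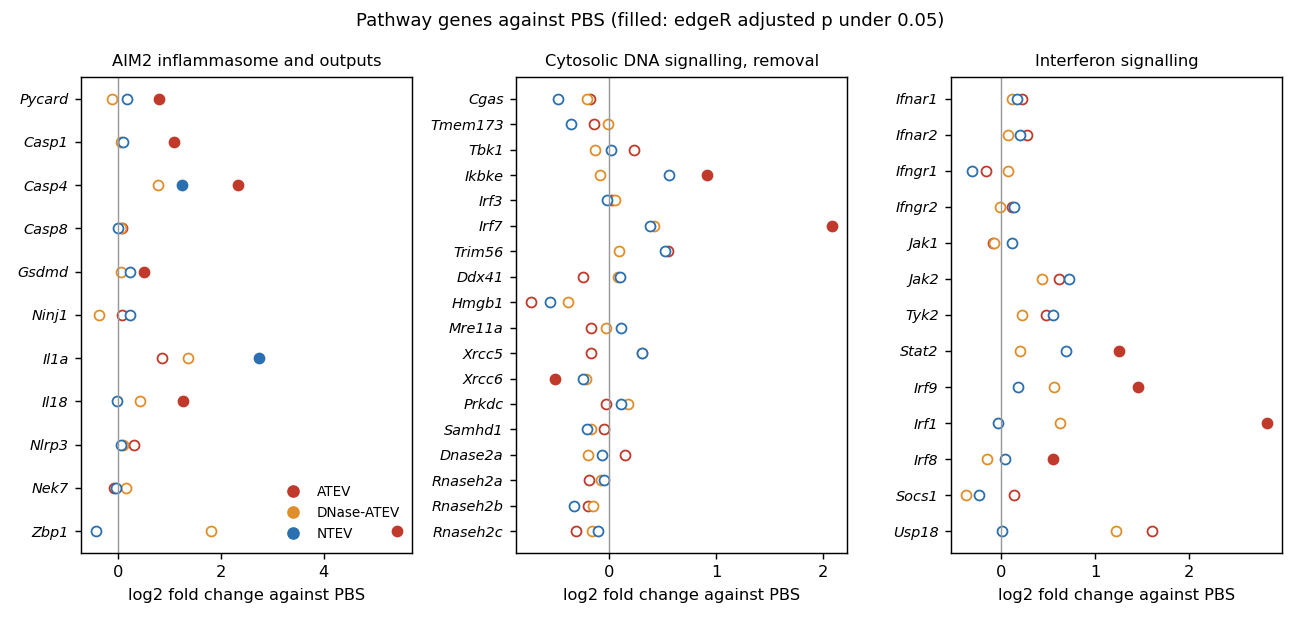
Log2 fold changes against PBS of the tested genes of 3 lists, for ATEV (red), DNase-treated ATEV (orange) and NTEV (blue); filled points passed edgeR's test at an adjusted p under 0.05. Filled red points include Zbp1 at 5.43, Irf1 at 2.83, Casp4 at 2.34 and Irf7 at 2.08, and no orange point is filled.

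Likeness was ranked among named genes other than the members, leaving out predicted, clone-named and pseudogene entries. Of these, the genes whose level over the 12 libraries was most like that of Ifi204 were Psme1 (Pearson r = 0.98), Mx1 (0.96), Psmb10 (0.96), Zbp1 (0.95) and Serpina3g (0.95). Psme1 encodes a subunit of the PA28 proteasome activator and Psmb10 an immunoproteasome subunit; Psme1 stood at 117 ± 5.19 CPM in PBS, 211 ± 31.1 with ATEV, 124 ± 22.2 with DNase-treated ATEV and 97.7 ± 14.5 with NTEV (SD, n = 3). The interferon-inducible GTPase gene Mx1 stood at 0.141 ± 0.0539 CPM in PBS and 3.18 ± 0.739 with ATEV. For the mean standardised profile of the 6 tested members the nearest genes were Psme1 (0.95), Psme2 (0.94), Serpina3g (0.93), Ly6a (0.93) and Psmb10 (0.92). That mean includes Ifi211, which passed the filter through the ATEV libraries alone, so the ranking is a description and no support. Between members, Ifi203 tracked Mndal (0.96) and Ifi204 (0.95), whereas Aim2 had values from 0.23 with Ifi207 to 0.49 with Ifi211. These correlations describe 12 libraries in 4 treatment groups, of which the ATEV group stood apart.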

How the data were processed

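RNA of DC2.4 cells was sequenced in 12 libraries, which per the labels' protocols came from the TruSeq stranded mRNA kit. Cufflinks 2.1.1, TopHat, TopHat2 2.0.11, bcl2fastq 2.19 and the build mm9 are listed in the submitters' processing notes; the read counter, annotation and strand setting are not given in the sources used here. The authors deposited whole-number counts per gene, 1 column per library, with no normalization visible in the values. Samples were grouped by treatment label and replicate number from the title, and 0 columns were left unassigned.

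Genes were named through GENCODE M21 identifiers (42250 of 42687 matched) and kept by filterByExpr (minimum count 10, minimum total 15). Counts were fitted in R 4.3.3 with edgeR 4.0.16 (TMM, quasi-likelihood F test, two-sided, 1 mean per group, all 12 libraries, 5 contrasts), with Benjamini-Hochberg adjustment over 13261 genes. DESeq2 1.42.0, limma-voom (limma 3.58.1), other scaling, no filter, the groups compared alone, a replicate block and leaving out each library were alternatives. Intervals are at 95% and floors use 3 counts. Replicates differed by more than counting noise (chi-square per degree of freedom 14.3 to 128), so none was treated as a copy. The script was tested on simulated data.

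Promoter windows came from RefSeq (GRCm38.p6); other coordinates are not printed because the submitters named another build. The members, gene lists and tests were chosen with earlier results of these data known. Named genes were all 8 members, up to 4 called genes per list with the smallest adjusted p, 6 fixed pathway genes and the 5 genes most like Ifi204 or the family mean. An item of the interferon list is not reported here, and the list's counts and medians are without it.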

Additional observations from a re-analysis of the deposited data

How the results depend on the processing

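The 4 members called for ATEV against PBS and for ATEV against NTEV were the same under both other tools, the other size factors, no filter and the fits of the groups compared alone. With 1 library left out, the count ranged from 3 to 4 of the tested members for ATEV against PBS, from 0 to 4 for ATEV against DNase-treated ATEV, from 0 to 1 for NTEV against PBS, and stayed at 4 for ATEV against NTEV and 0 for DNase-treated ATEV against PBS. For NTEV against PBS, DESeq2 called 2 members where edgeR called 0; the cause was not tested. For ATEV against DNase-treated ATEV, 0 members were called without DNase-treated replicate 2 and 1, Ifi211, without replicate 3, in fits with fewer samples. The counts of called members given here include Ifi211, whose call is a description and no support.

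Directions turned only where no call had been made. With 1 library left out, log2 estimates for DNase-treated ATEV against PBS ran from -0.22 to 0.26 for Ifi203, from -0.65 to 1.26 for Ifi211, from -0.24 to 0.029 for Mndal and from -0.049 to 0.12 for Aim2. Those for ATEV against PBS ran from -0.071 to 0.31 for Ifi207, and those for NTEV against PBS from -0.65 to 1.18 for Ifi211. Why they turned was not tested.

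Whether the replicate numbers pair the samples is not clear from the labels. Deviations of same-numbered libraries correlated from -0.38 to 0.62, over 0.1 in 6 of 18 pairs, and 6 of 12 libraries correlated best with their own number. All 3 pairs were over 0.1 between DNase-treated ATEV and NTEV (0.62, 0.35 and 0.13), which were not compared, and in none of the 5 comparisons made, so the numbers were not used as pairs. Single pairs were higher in comparisons made. Replicate 1 of NTEV and PBS gave 0.52, and replicates 1 and 3 of DNase-treated ATEV and PBS gave 0.44 and 0.20. The remaining same-numbered pairs of these comparisons ran from -0.058 to 0.0053. The fit with a replicate block called 4, 0, 0, 3 and 4 members in the 5 comparisons (ATEV, DNase-treated ATEV and NTEV against PBS, then ATEV against DNase-treated ATEV and NTEV), as without it, while over all genes it moved the calls for ATEV against PBS from 628 to 1440. Over all genes that comparison had 1538 calls with DESeq2, 1317 without the filter, 1237 with its 2 groups alone, and 169 to 863 with a library left out. Depth limits Ifi209, with 41 counts in all, and Ifi211 outside the ATEV group.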

Other observations

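The 10-base word GAAATCGAAA, the most frequent match in the member promoters and counted after these had been read, occurred in 16 of 32851 RefSeq promoter windows, of which 7 belonged to genes of the p200 cluster and 4 to the members Ifi203, Mndal, Ifi207 and Ifi213. Ifi211 does not hold this word in its window.

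Ifi203-ps, annotated as an unprocessed pseudogene and chosen after its values were seen, had 11, 11 and 15 counts in PBS, 30, 13 and 28 with ATEV, 24, 21 and 15 with DNase-treated ATEV and 8, 11 and 6 with NTEV. It was not called in any of the 5 comparisons (for ATEV against PBS, log2 fold change 1.08 ± 0.39, SE, edgeR adjusted p = 0.110).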
